A study of Rattus norvegicus with 71 samples.

Results

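The vessels of the newborn brain were described here through a list of 37 gene symbols that stand for blood-brain barrier endothelium, the vascular endothelial growth factor (VEGF) system and pericytes. The genes were chosen by symbol, and 36 of the 37 were found among the 17494 genes of the count table, since the symbol Lef matched no row. RNA came from a coronal slice of the postnatal day 2 brain of Sprague-Dawley rats, cut so that it held the hippocampus and the cortex and deeper structures around it, with 1 library from each of 71 offspring of 27 litters (35 male, 36 female). All dams received adjuvant. Control dams received saline with it and gave 24 offspring from 7 litters, and the other dams were immunised with peptides drawn from the antigens in the name of their maternal autoantibody-related autism (MARA) pattern. The CRMP1+CRMP2 group held 8 offspring (4 litters), the LDHA/B+CRMP1+STIP1 group 25 offspring (9 litters), the CRMP1+GDA group 6 offspring (3 litters) and the STIP1+NSE group 8 offspring (4 litters). Sample titles fell into 2 series. In series 1 there were 12 controls and 16 animals of LDHA/B+CRMP1+STIP1 (7 litters in all). Series 2 had the other 12 controls, 9 animals of LDHA/B+CRMP1+STIP1 and every animal of the 3 remaining patterns, 43 animals of 20 litters. By what they contain, the series correspond to separate rounds of library processing and sequencing. Each library held 24880182 to 36234952 counts. Littermates shared a dam, and the exposure was given to the dam, so animals of 1 litter are not independent.

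Brain capillaries are tubes of endothelial cells sealed by tight junctions (claudin-5, occludin, ZO-1) and adherens junctions (VE-cadherin), wrapped by pericytes that the endothelium recruits through PDGF-B and its receptor. Endothelial cells carry nutrients inwards through dedicated transporters and pump many drugs outwards. Vessels grow into the brain towards VEGF-A made by neural cells, which is read by the receptor VEGFR2 (Kdr) and trapped by VEGFR1 (Flt1), while angiopoietins and the receptor Tie2 (Tek) set how stable the vessel is.

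All 36 genes were expressed in the slices, and 35 of them exceeded 1 CPM (counts scaled by TMM-corrected library size) in all 71 animals. Levels between genes are compared per exon length, as RPKM. Medians over the 71 animals spanned 0.815 to 71 RPKM, with 15 genes over 10 RPKM, 20 between 1 and 10 and 1 under 1. The tight junction protein Cldn5 (71 RPKM) and the amino acid transporter Slc7a5 (70.2 RPKM) stood at the top, followed by the pericyte gene Rgs5 (36.8 RPKM), the thyroid hormone transporter Slco1c1 (29.6 RPKM) and Vegfa (27 RPKM). In the order of medians, the ranges over animals of all 35 pairs of neighbours overlapped. Among the VEGF receptors Kdr (8.16 RPKM) lay above Flt1 (2.97 RPKM) and the lymphatic receptor Flt4 (1.14 RPKM), and among the ligands Vegfa and Vegfb (19.9 RPKM) lay above Vegfc (2.6 RPKM). The endothelial receptor Tie1 (12.1 RPKM) exceeded its partner Tek (3.95 RPKM), and Angpt1 (2.98 RPKM), the ligand that activates Tek, lay near the context-dependent antagonist Angpt2 (1.87 RPKM). The efflux pumps Abcg2 (2.31 RPKM) and Abcb1a (1.998 RPKM) and the organic anion transporter Slco1a4 (0.815 RPKM) were low. Slco1a4 was also the most variable gene, from 0.0802 to 7.56 CPM, with a coefficient of variation of 50.1% against a median of 20.6% over the 36 genes. Abcb1a and Slco1a4 have close relatives in their gene families, so reads shared with those copies could change their levels. In bulk tissue, fewer vascular cells and less RNA per vascular cell cannot be told apart.

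The junction and adhesion genes spanned a wide range of levels, from Cldn5 down through the scaffold gene Tjp1 (15.7 RPKM), the endothelial adhesion gene Esam (11.5 RPKM), Cdh5 (8.27 RPKM) and Pecam1 (5.72 RPKM) to Ocln (2.34 RPKM). Among transporters and receptors of the barrier, the lactate and ketone carrier gene Slc16a1 (23.8 RPKM), the iron uptake receptor gene Tfrc (22.5 RPKM), the glucose carrier gene Slc2a1 (20.5 RPKM) and the lipid carrier gene Mfsd2a (11.2 RPKM) lay in between. Of the endothelial transcription factors Sox18 (9.52 RPKM) lay above Erg (2.46 RPKM) and Sox17 (2.1 RPKM). The ligand gene Pdgfb (10.2 RPKM) and its receptor gene Pdgfrb (8.47 RPKM) had similar medians, and Eng stood at 10.3 RPKM. The other pericyte genes were below Rgs5 per exon length, with Cspg4 at 4.52, Abcc9 at 2.86, Kcnj8 at 2.64 and Anpep at 2.04 RPKM. The high RPKM of Rgs5 rests on an exon length of 546 bases, the shortest of the 36 genes. In CPM its median (20.1) lay below that of Cspg4 (36.5), near that of Abcc9 (18.9) and above those of Anpep (6.77) and Kcnj8 (4.17). The steadiest genes between animals were Vegfb (coefficient of variation 9.86%), Slc16a1 (11.8%), Tfrc (12%) and Slco1c1 (12.4%), and after Slco1a4 the most variable were Abcg2 (37.9%), Angpt1 (32.4%) and Anpep (31.6%).

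Markers of other cells gave the setting of these levels. The summed markers of neurons spanned 6988 to 9226 CPM and those of astrocytes and radial glia 954 to 1826 CPM, and all 10 of each list had a median over 1 CPM. The 14 endothelial markers summed to 297 to 660.4 CPM and the 6 pericyte markers to 88 to 187 CPM, and these 20 genes are all members of the list itself. Tissue at the edge of the cut varied far more. Choroid plexus markers summed to 25.1 to 3654 CPM, meningeal markers to 24.3 to 1470.5 CPM and red blood cell markers to 297 to 2465 CPM. Pineal markers, or Hox markers of hindbrain and spinal cord, exceeded 10 CPM in 15 slices, 1 in series 1 and 14 in series 2.

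**Figure D1:**
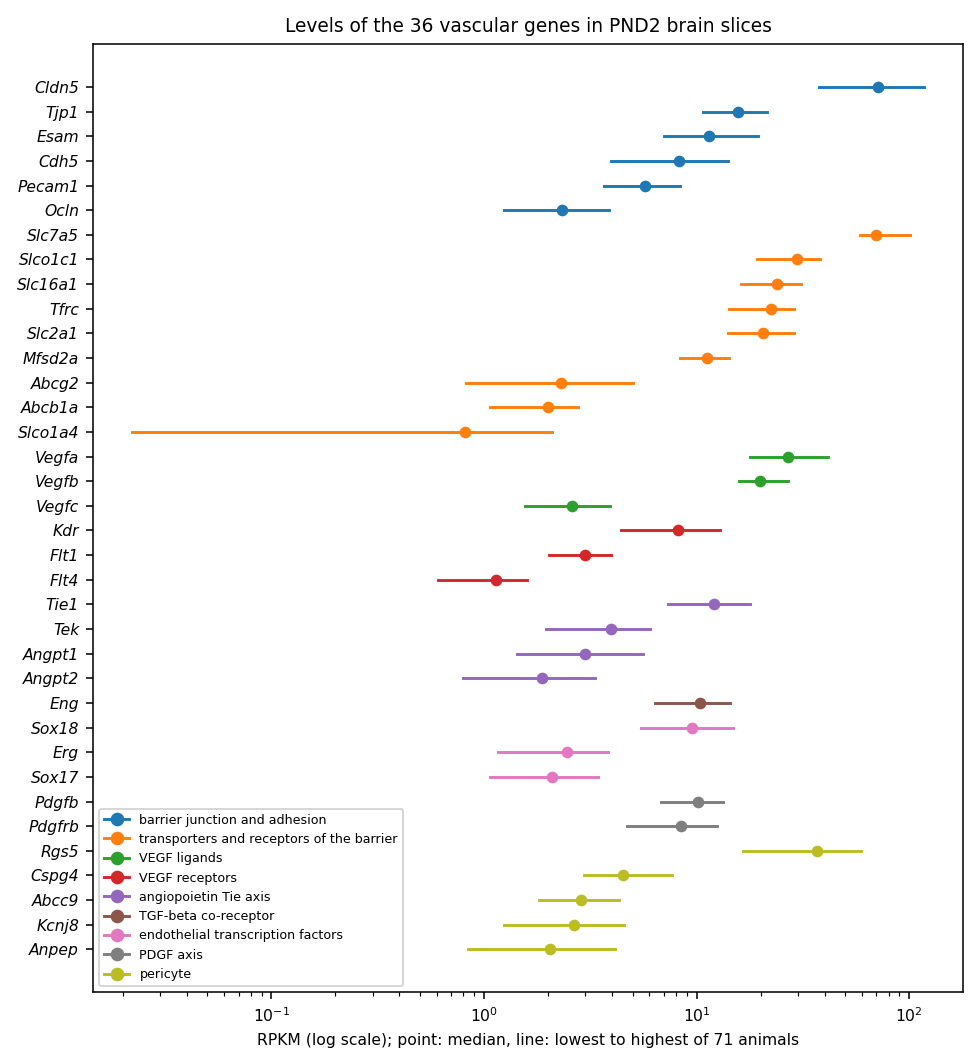
Median level (points) and range over 71 animals (lines) of the 36 vascular genes in RPKM on a log axis, coloured by role. Cldn5 and Slc7a5 lie at 71 and 70.2 RPKM, and Slco1a4 is lowest with the widest range.

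The list mixes genes that mark vascular cells with genes that other brain cells also use, and they differed in how they varied between animals. After the mean of each group in each series was subtracted from log2 CPM, the VE-cadherin gene Cdh5 (chr19:816849-854368 in rn7) was followed across the 71 animals most closely by Tie1 (Pearson's r = 0.88), Tek (0.88), Kdr (0.87), the aminopeptidase gene Anpep of pericytes (0.82), the TGF-beta co-receptor gene Eng (0.81), the pericyte receptor gene Pdgfrb (0.81) and the adhesion gene Pecam1 (0.77). Of the other 35 genes, 21 had r over 0.5 with Cdh5 and 13 over 0.7, and Spearman's rho gave 0.88 for Tie1 and 0.89 for Kdr. The group that rose and fell together held endothelial receptors (Tie1, Tek, Kdr, Flt1 at 0.66), junction genes (Cldn5 at 0.71, Esam at 0.70), the glucose transporter gene Slc2a1 (0.72), endothelial transcription factors (Sox17 at 0.70, Erg at 0.66, Sox18 at 0.60) and the pericyte gene Rgs5 (0.73). Tjp1 (0.46) and the pericyte channel genes Abcc9 (0.35) and Kcnj8 (0.32) followed Cdh5 less closely. Outside it lay Vegfa (-0.30), Vegfb (-0.05), Vegfc (0.12), Angpt1 (0.14), Slc7a5 (0.14), the transferrin receptor gene Tfrc (0.16) and Cspg4 (-0.06), which encodes NG2 of pericytes and of oligodendrocyte precursors. These values describe libraries whose slices differ in content and whose animals share dams. They carry no p. Over all 630 pairs of the 36 genes the median r was 0.33, with 104 pairs below 0.

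Vegfa ran against several barrier genes, though not all of them. The r of Vegfa was -0.63 with Cldn5, -0.45 with Pecam1 and -0.43 with Tie1, but 0.25 with Tjp1, 0.08 with Mfsd2a, 0.59 with Tfrc and 0.57 with Cspg4. Tfrc and Cspg4 are not restricted to vessels. Angpt1 had r = 0.64 with the summed markers of astrocytes and radial glia, and Vegfa -0.55. Other tissue in the slice moved with the same group. The summed level of 12 markers of meninges and fibroblasts had r = 0.84 with Cdh5, 0.83 with Tie1 and 0.89 with Slco1a4, and the 12 choroid plexus markers 0.31 with Cdh5. The r of Cdh5 was 0.69 with the summed markers of microglia and 0.58 with those of red blood cells. Meninges carry vessels of their own, and fits with the meningeal sum as a covariate are given beside the comparisons.

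**Figure D2:**
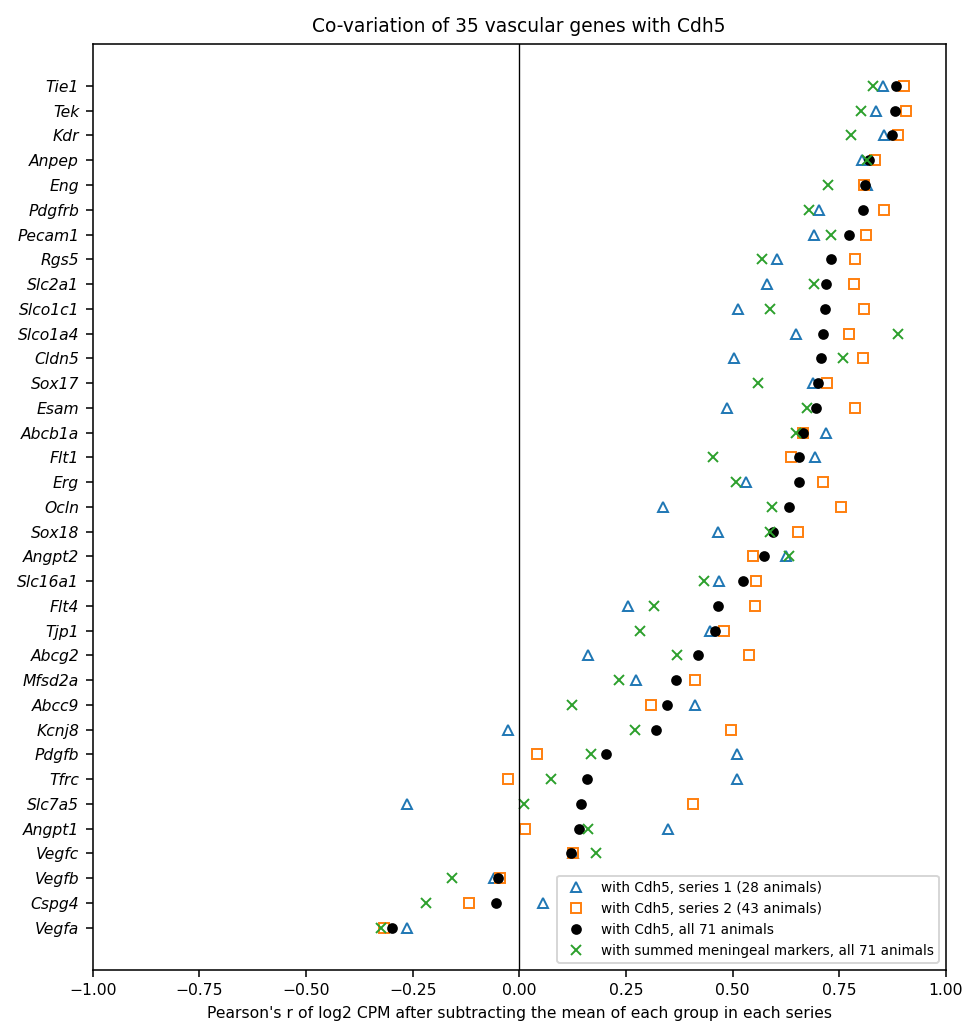
Pearson's r of each vascular gene with Cdh5 in all 71 animals (filled circles), in 28 animals of series 1 (triangles) and in 43 animals of series 2 (squares), and with the summed meningeal markers (crosses), from log2 CPM after the mean of each group in each series was subtracted. Genes run from Tie1 at the top to Vegfa at the bottom, which had r = -0.30 with Cdh5.

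The pairing of genes was tested on litter means, since littermates share a dam, for 3 pairs in each series (6 relations, two-sided permutation tests, Benjamini-Hochberg adjusted over the 6). The permutations took litters as exchangeable and did not account for group. Litters of series 2 with neighbouring dam numbers varied together, as described below, so the p-values there may be too small. In the 20 litters of series 2, Pecam1 followed Cdh5 (Pearson's r = 0.854, permutation p = 2e-05, adjusted p = 0.00012; Spearman's rho = 0.871, adjusted p = 6e-05), with r = 0.787 once the 2 litters farthest from the median of Pecam1 were left out. There 2e-05 is the smallest p that the permutations can give. Pdgfrb followed Cdh5 as well (r = 0.818, adjusted p = 0.00012; rho = 0.847, adjusted p = 6e-05, permutation tests), with r = 0.868 without 2 litters. Kcnj8 and Abcc9, the pore and regulatory subunits of the pericyte potassium channel, did not pass (r = 0.415, permutation p = 0.073, adjusted p = 0.146; rho = 0.409, adjusted p = 0.147), and r was 0.193 without 2 litters. The 2 genes are neighbours on chromosome 4 (chr4:175509693-175515553 and chr4:175532533-175655356 in rn7) with no exon in common. In the 7 litters of series 1 none of the 3 relations passed the exact permutation test. There r was 0.541 for Pecam1 with Cdh5 (adjusted p = 0.267), 0.525 for Cdh5 with Pdgfrb (adjusted p = 0.267) and -0.308 for Kcnj8 with Abcc9 (adjusted p = 0.52), with rho of 0.571, 0.571 and -0.536 (adjusted p = 0.236 for each). Left without 2 litters, the series 1 values of r were 0.702, 0.203 and 0.598.

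The 250 bases before the start of Tie1, Kdr and Vegfa are shown, because Tie1 and Kdr moved with Cdh5 and Vegfa did not. They were copied from RefSeq promoters on the build GRCr8, where 25 of the 36 genes were matched, and each is read 5′ to 3′ on the strand of the gene. GRCr8 is not the build of the counts, and its positions are chr5:137304982-137305231 on the minus strand for Tie1, chr14:32571813-32572062 on the plus strand for Kdr and chr9:22452604-22452853 on the plus strand for the first of the entries of Vegfa. Capitals mark GGAA, the core that ETS factors such as Erg bind, or its reverse complement TTCC.
Tie1: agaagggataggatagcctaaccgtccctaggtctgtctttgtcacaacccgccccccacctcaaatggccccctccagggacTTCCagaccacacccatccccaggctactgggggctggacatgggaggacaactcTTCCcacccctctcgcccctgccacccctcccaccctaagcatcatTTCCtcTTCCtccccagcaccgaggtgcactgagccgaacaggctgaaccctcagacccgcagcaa
Kdr: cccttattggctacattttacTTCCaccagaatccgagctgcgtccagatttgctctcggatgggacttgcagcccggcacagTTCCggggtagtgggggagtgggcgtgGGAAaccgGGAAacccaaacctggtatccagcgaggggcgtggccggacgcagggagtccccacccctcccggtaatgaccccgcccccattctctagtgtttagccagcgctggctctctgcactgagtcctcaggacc
Vegfa: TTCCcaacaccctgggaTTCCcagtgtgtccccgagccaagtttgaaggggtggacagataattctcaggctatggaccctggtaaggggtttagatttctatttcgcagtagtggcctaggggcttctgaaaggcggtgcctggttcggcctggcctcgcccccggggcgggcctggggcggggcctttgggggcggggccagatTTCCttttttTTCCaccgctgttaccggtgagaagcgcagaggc

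Both strands were searched, and GGAA was found 4 times in each of the 3 windows. A core of this length is common, and 21 of the 25 vascular genes (84%) and 93.2% of 27457 RefSeq promoters held it in the same window. ACGTG, the core of the hypoxia response element, was in none of the 3 windows. It was in 5 of 25 vascular genes (Slc16a1, Slc2a1, Slc7a5, Slco1a4 and Tfrc), against 16.9% of all promoters. GGGCGG, a GC box, was in 18 of 25 (72%) against 32.4% of all. Matches of the 3 motifs may share bases, and the motifs were chosen after the values were seen. A match of letters is not a binding site.

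MARA-AB exposed offspring were first set against controls as a whole. Most vascular genes had values slightly above 0, led by the receptor genes Eng, Flt1 and Kdr, and none passed the threshold in this comparison with all controls. Of the 36 genes, 0 had FDR < 0.1 in edgeR's quasi-likelihood test with 1 surrogate variable, where 0.0321% of 12477 genes passed. The median log2 fold change of the 36 was 0.09 against 0.00 over all genes, and 35 of 36 lay above 0 against 51.8% of all genes. Since these genes rose and fell together between animals, the count of directions is not a count of independent observations. At an unadjusted p under 0.05, 4 of 36 genes (11.1%) were higher, against 10.3% of all genes. DESeq2, median-ratio factors, counts summed per litter and the litter as a random effect also gave 0 genes at FDR < 0.1.

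Eng, the endoglin co-receptor of endothelial TGF-beta and BMP9 signalling (chr3:15934566-15972618 in rn7), came nearest. Its lowest, median and highest CPM were 21.1, 30.6 and 36.8 in controls of series 1, 18.5, 26.3 and 35.7 in controls of series 2, 27.8, 31.7 and 41.4 in LDHA/B+CRMP1+STIP1 of series 1 and 20.2, 29.5 and 38.3 of series 2. They were 23.9, 31.3 and 37.4 in CRMP1+CRMP2, 26.2, 30.4 and 32.4 in CRMP1+GDA and 24.3, 30.3 and 36.6 in STIP1+NSE. Controls of series 2 were low and all groups overlapped. The difference was 0.20 ± 0.06 (log2, SE) over 71 animals, with edgeR's adjusted p = 0.231 (unadjusted p = 0.000802), and 0.23 ± 0.07 within series 2 (adjusted p = 0.724). Flt1, which encodes VEGFR1 (chr12:7297292-7468626), had medians of 32.3 and 26.6 CPM in the 2 control sets and of 33.7, 31.2, 32.1, 32.6 and 31.2 CPM in LDHA/B+CRMP1+STIP1 of series 1, of series 2, CRMP1+CRMP2, CRMP1+GDA and STIP1+NSE. Here too the controls of series 2 were the lowest group. Its difference was 0.16 ± 0.05 (adjusted p = 0.304 in edgeR). 

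Kdr, which encodes VEGFR2 (chr14:32217886-32261013), had lowest, median and highest CPM of 27.9, 47.9 and 59.4 in controls of series 1 and 25.9, 45.9 and 55 of series 2, 33.9, 44.9 and 66.6 in LDHA/B+CRMP1+STIP1 of series 1 and 33.9, 50.4 and 58.8 of series 2. In CRMP1+CRMP2 they were 34.8, 51 and 75.3, in CRMP1+GDA 40.4, 53.6 and 59.7 and in STIP1+NSE 41, 52.3 and 57.7. The highest animal was in CRMP1+CRMP2, and all groups overlapped. Kdr differed by 0.16 ± 0.07 (adjusted p = 0.446) between exposed animals and controls in edgeR. Pdgfrb, the receptor through which pericytes are recruited (chr18:54500002-54538843), had 30.8, 46.2 and 49.5 CPM (lowest, median, highest) in controls of series 1 and 25.2, 40.6 and 50.6 CPM in controls of series 2, and medians of 44, 51.6, 47, 43.4 and 47.5 CPM in the exposed groups in the order used for Flt1. It differed by 0.13 ± 0.06 (adjusted p = 0.477). Pecam1 (chr10:91590521-91652116) had 11.9, 18.1 and 23.7 CPM (lowest, median, highest) in all controls and 12, 18.7 and 26.7 CPM in all exposed animals, which overlapped over nearly their whole range. With PC1 to PC7 in place of the surrogate variable, the value for Pdgfrb was -0.01. Values were smaller for other genes at the barrier. Cldn5 differed by 0.09 ± 0.08, Pecam1 by 0.03 ± 0.06, Slc2a1 by 0.00 ± 0.04 and Vegfa by 0.03 ± 0.07, all with adjusted p of 0.713 or more in edgeR.

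Markers of other tissue also had values above 0 in the exposed animals. The median log2 fold change was 0.35 over the 11 tested meningeal markers and 0.85 over the 12 choroid plexus markers, with 0 called in each list. Summed meningeal markers ranged over 77 to 857 CPM in controls and 24.3 to 1470.5 CPM in exposed animals, with medians of 505 and 653 CPM. These medians pool the series. In series 1 they were 505 CPM in controls and 426 CPM in LDHA/B+CRMP1+STIP1, and in series 2 501 CPM in controls and 693 to 810 CPM in the exposed groups. The choroid plexus sum had medians of 54.5 CPM in series 1 and 1130 CPM in series 2. Within series 2, with the dam-number block described below, the choroid plexus median was 0.24. With the log2 sum of the meningeal markers as a covariate, the median of the 36 vascular genes was 0.04 and 28 of 36 lay above 0, with 0 called. With the choroid plexus sum it was 0.07 and 29 of 36.

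**Figure D3:**
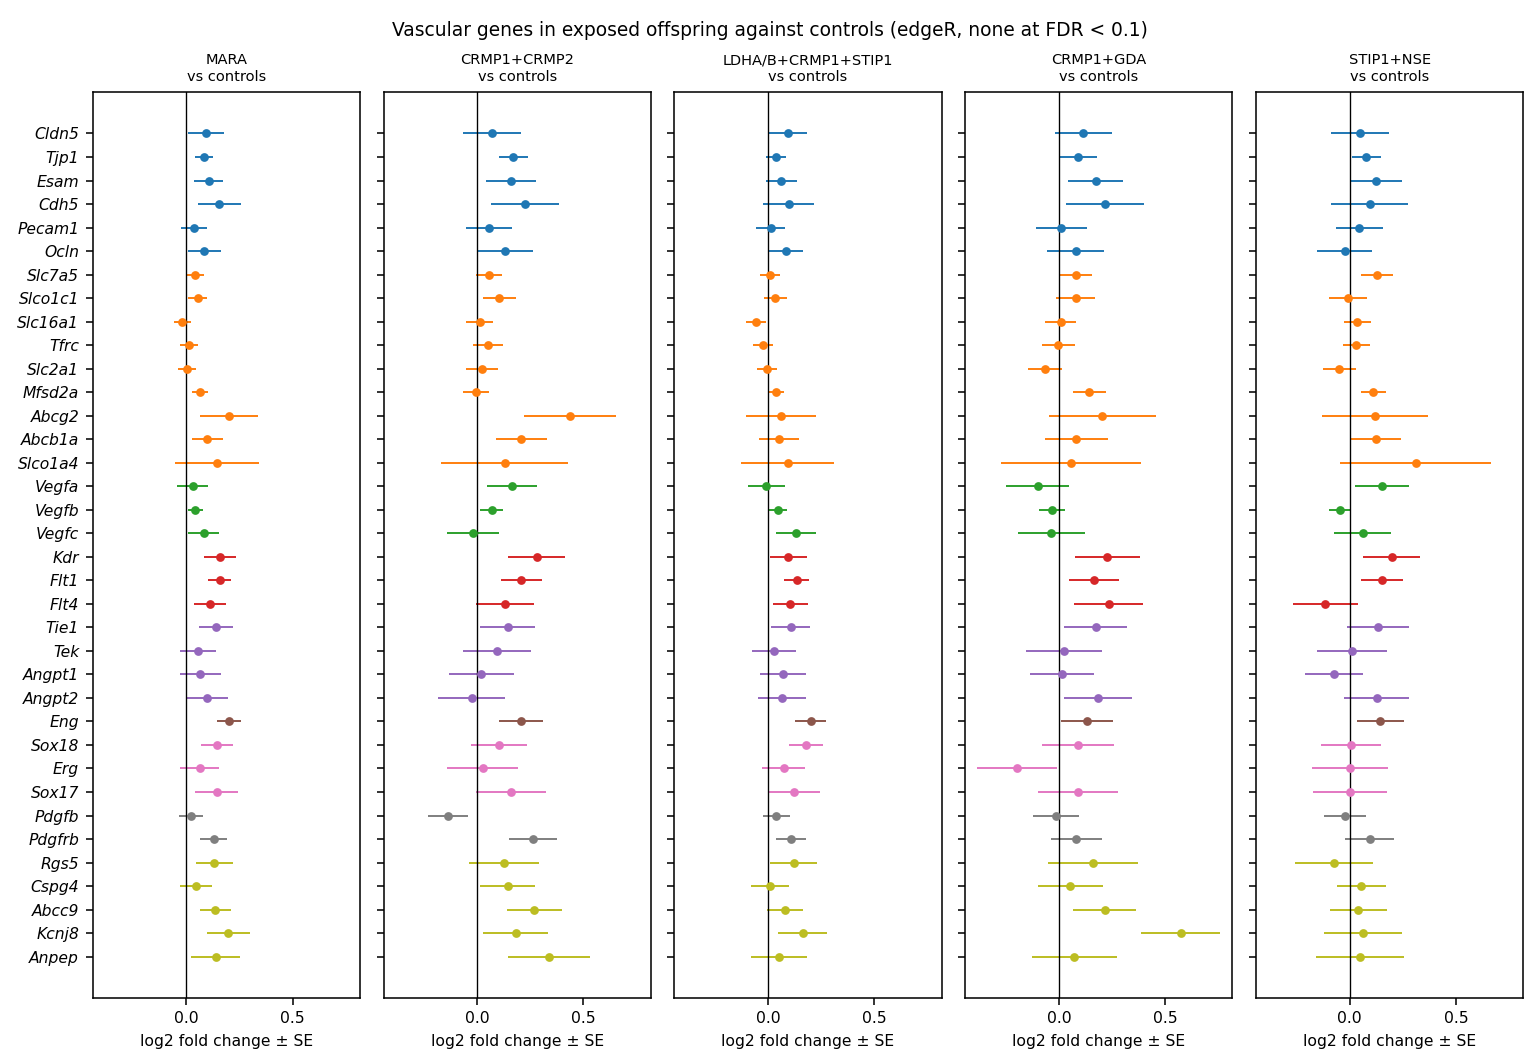
Log2 fold change with its standard error for the 36 vascular genes in exposed animals against controls, for all exposed animals and for each pattern, from edgeR. Most points lie right of 0 and none passed FDR < 0.1 in these fits. The largest is Kcnj8 in CRMP1+GDA at 0.57.

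CRMP1+CRMP2 had the most calls of the 4 patterns, but with all controls none among the vascular genes. In edgeR 11.4% of 12691 genes had FDR < 0.1, and 0 of the 36 vascular genes, whose median log2 fold change was 0.13 with 32 of 36 above 0. The lowest adjusted p was that of Tjp1, which encodes the junction scaffold ZO-1 (chr1:118849838-118914869). Its lowest, median and highest CPM were 94.9, 107 and 124 in CRMP1+CRMP2, 80.9, 109.5 and 127 in controls of series 1 and 81.2, 90.5 and 104 in controls of series 2. The exposed animals thus lay high against the controls of their own series and level with those of series 1. The difference was 0.17 ± 0.07 (adjusted p = 0.128) with all controls and 0.24 ± 0.05 (adjusted p = 0.0753) within series 2, where it was the only vascular gene called and 1.01% of all genes passed. With the litter as a random effect its adjusted p was 0.424 with all controls. Kdr differed by 0.28 ± 0.14 (adjusted p = 0.195). Flt1 differed by 0.21 ± 0.10, Pdgfrb by 0.26 ± 0.11, the potassium channel gene Abcc9 by 0.27 ± 0.13 and the efflux pump gene Abcg2 by 0.44 ± 0.22 (adjusted p of 0.18, 0.153, 0.196 and 0.209). Cldn5 (0.07 ± 0.14), Slc2a1 (0.02 ± 0.08) and Pecam1 (0.06 ± 0.11) lay within 1 SE of 0.

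The count in CRMP1+CRMP2 depended on single litters. Without the exposed litter 9_16 (2 animals) 4 genes passed (Abcc9, Flt1, Pdgfrb and Tjp1), without the control litter 9_25 (4 animals) 4 passed (Abcc9, Abcg2, Flt1 and Pdgfrb), without the control litter 9_10 (4 animals) Vegfa alone and without the control litter IgG1 (4 animals) Tjp1 alone, all in edgeR. In these 4 fits 22.8%, 11.7%, 22.1% and 9.14% of all genes passed. Meningeal markers reached 265 to 1470.5 CPM in CRMP1+CRMP2 (median log2 fold change 0.53, 0 called) and 7 of 7 tested pineal markers and 11 of 12 choroid plexus markers were called higher. With the meningeal sum as a covariate the median of the 36 genes was -0.01 and 17 of 36 lay above 0, and the 2 vascular genes called were Slco1a4 and Vegfa, with 2550 called among all genes (20.1%). Without the slices that exceeded 10 CPM of summed pineal or Hox markers the median was 0.08, and 0 of all genes passed, vascular genes included.

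LDHA/B+CRMP1+STIP1 is the one pattern present in both series. None of the 36 genes passed (0.0157% of 12700 genes did), and their median log2 fold change was 0.07 with 32 of 36 above 0. Eng differed by 0.20 ± 0.07 (adjusted p = 0.438), with 0.18 ± 0.07 within series 1 and 0.23 ± 0.12 within series 2. The endothelial transcription factor gene Sox18 differed by 0.18 ± 0.08 (adjusted p = 0.624) and Flt1 by 0.13 ± 0.06 (adjusted p = 0.639). Eng passed (0.26, adjusted p = 0.0694) once the slices over 10 CPM of pineal or Hox markers were left out, an alternative chosen after the data were seen in which 215 genes passed in place of 2. With the meningeal sum as a covariate the median of the 36 was 0.03, 24 lay above 0 and 0 passed. A model with series, exposure and their interaction asked whether the effect differed between series, and 0 of 36 genes passed, with 0.11% of 12700 called. For Kdr the separate values were 0.02 ± 0.10 in series 1 and 0.21 ± 0.13 in series 2, and for Kcnj8 0.04 ± 0.13 and 0.39 ± 0.19.

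In CRMP1+GDA the value that stood apart was that of Kcnj8, the pore subunit of the ATP-sensitive potassium channel of pericytes. Its lowest, median and highest CPM were 3.84, 5.82 and 6.55 in the 6 CRMP1+GDA animals, 2.75, 4.34 and 6.21 in controls of series 1 and 1.97, 3.68 and 5.03 in controls of series 2. In this pattern the 4 animals of litters 9_3 and 9_18 exceeded every control of series 2, the 2 animals of litter 9_8 did not, and the ranges overlapped. The difference was 0.57 ± 0.19 with all controls and 0.70 ± 0.18 within series 2. It did not pass (adjusted p = 0.999 and 0.716 in edgeR, unadjusted p = 0.00419 and 0.00117). None of the 36 genes passed, and 0% of 12641 genes did (461 had an unadjusted p under 0.05 in edgeR, among them 1 vascular gene). The partner subunit Abcc9 differed by 0.22 ± 0.15, the pericyte gene Rgs5 by 0.16 ± 0.21 and Pdgfrb by 0.08 ± 0.12. The median of the 36 was 0.08 with all controls and 0.21 within series 2, where Kdr differed by 0.34 ± 0.15, Flt1 by 0.27 ± 0.10 and Eng by 0.25 ± 0.11 (adjusted p = 0.956 for each). Hox markers, which are silent in forebrain, reached 157 CPM in this group. Their part in these values was not tested beyond leaving such slices out, which gave a median of 0.07. With the meningeal sum as a covariate the median was 0.03.

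In STIP1+NSE none of the 36 vascular genes passed (0.0474% of 12660 did), 0 had an unadjusted p under 0.05 in edgeR, and the median log2 fold change was 0.05, or 0.03 with the meningeal sum as a covariate. The lipid transporter gene Mfsd2a differed by 0.11 ± 0.06, Kdr by 0.20 ± 0.13, Vegfa by 0.15 ± 0.13 and Cldn5 by 0.05 ± 0.14 (adjusted p = 1 for each). Of the 36 genes, 21 lay above 0 in all 4 patterns and 0 lay below 0 in all 4. The 4 comparisons share their controls, so this is no replication.

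Dam numbers of series 2 gave another way to order its litters. They run in blocks of 5 consecutive numbers (9_1 to 9_5, 9_6 to 9_10 and so on), with at most 1 litter of each pattern and of controls in a block. The labels do not say what the litters of a block shared. After the mean of each group was subtracted, the correlation over 12725 genes between litters of different groups had a median of 0.36 over 33 pairs in the same block and of -0.08 over 126 pairs in different blocks. Fits within series 2 with the block as a covariate were therefore added after the data were seen.

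With the block in the fit, receptor and pericyte genes passed where they had not before. In all exposed animals against controls of series 2, 9 of the 36 vascular genes had FDR < 0.1 in edgeR, all of them higher, against 12.3% of 12384 genes. The block of dams 9_16 to 9_19 holds no control litter, so it adds no direct comparison of exposed animals with controls. That of litters 9_24 and 9_25 sets 1 exposed animal against 4 controls. Flt1 differed by 0.34 ± 0.07 (adjusted p = 0.0121), Eng by 0.31 ± 0.07 (adjusted p = 0.0187), Abcc9 by 0.36 ± 0.09 (adjusted p = 0.0247), Cspg4 by 0.30 ± 0.09 (adjusted p = 0.0369), Kdr by 0.32 ± 0.10 (adjusted p = 0.0502) and Pdgfrb by 0.28 ± 0.09 (adjusted p = 0.0532). The other 3 were Tjp1, Abcg2 and Kcnj8, with adjusted p of 0.071, 0.0998 and 0.0999. Of the marker lists in this fit, 4 of 4 tested Hox, 3 of 12 microglial and 1 of 11 meningeal markers were also called higher. In the lists of oligodendrocytes and neurons 1 marker each was called lower, and 0 of 12 choroid plexus and 0 of 3 pineal markers were called. With the litter as a random effect beside the block, Flt1 and Eng passed (adjusted p = 0.0669 and 0.076 in limma voom, 2.33% of all genes). The count rested on the control litter 9_10 (4 animals, all female), since without it 0 of the 36 genes and 0 of all genes passed. It was 5 to 9 without any other litter, where 3.37% to 17.2% of all genes passed. The control litter 9_25 was all male, and sex was a covariate in these fits. With the meningeal sum added 5 genes passed (6.13% of all) and the median of the 36 went from 0.10 to 0.02, and without the slices over 10 CPM of pineal or Hox markers Flt1 and Eng passed (5.63% of all).

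In CRMP1+CRMP2 the same fit called 11 vascular genes higher, but 30.6% of 12605 genes passed there, so the share of vascular genes was that of all genes. The called genes were Tjp1, Cdh5, Abcg2, Tfrc, Vegfa, Kdr, Flt1, Eng, Pdgfrb, Abcc9 and Cspg4. The efflux pump gene Abcg2 differed by 0.97 ± 0.18 (adjusted p = 0.00128), Abcc9 by 0.57 ± 0.14 (adjusted p = 0.00883), Pdgfrb by 0.54 ± 0.15 (adjusted p = 0.0157), Tjp1 by 0.31 ± 0.07 (adjusted p = 0.00357) and Vegfa by 0.35 ± 0.13 (adjusted p = 0.0577). The same 11 genes passed with the litter as a random effect (23.5% of all genes). Both groups occur together in 3 blocks, so the contrast rests on 3 exposed and 3 control litters. The count was 6 to 14 when a litter was left out, where 19.9% to 28.4% of all genes passed. It was 12 with the meningeal sum added (27.8% of all, median of the 36 down from 0.24 to 0.06), 9 with the choroid plexus sum added (31.4%) and 1, Cspg4, without the pineal or Hox slices (10.5%). Of marker lists, 6 of 7 pineal, 2 of 5 Hox, 3 of 12 microglial, 2 of 12 choroid plexus and 1 of 11 meningeal markers were also called higher. Lists of astrocytes, oligodendrocytes and neurons each had 1 marker called higher, and 2, 2 and 1 called lower. No vascular gene passed with the block in LDHA/B+CRMP1+STIP1 (0% of 12570 genes), CRMP1+GDA (0.0399% of 12538) or STIP1+NSE (0.00796% of 12562). There Flt1 differed by 0.29 ± 0.08, 0.34 ± 0.12 and 0.28 ± 0.09 (adjusted p = 0.156, 0.419 and 0.256). Kcnj8 in CRMP1+GDA differed by 0.47 ± 0.19 (adjusted p = 0.447). The block of CRMP1+GDA litter 9_18 holds no control litter. That contrast therefore rests on the exposed litters 9_3 and 9_8 and the control litters 9_5 and 9_10. The comparisons share their controls.

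VEGF was also a protein of interest in this rat model, measured in whole-brain lysates. The paper reported less VEGF protein in CRMP1+CRMP2 and in STIP1+NSE than in CRMP1+GDA. Its transcript, an unlike measure taken in a slice, was therefore compared directly between the 3 patterns that occur in series 2 alone. The Vegfa values of these pairs, given next, lay in the opposite direction. Vegfa (chr9:14955300-14970640) had lowest, median and highest CPM of 95.9, 116 and 159 in CRMP1+CRMP2, 77.6, 84.7 and 134 in CRMP1+GDA, 91.4, 105 and 146 in STIP1+NSE and 71.3, 102 and 156 in controls of series 2. In CRMP1+GDA 5 of 6 animals lay at 89.3 CPM or less, under the lowest CRMP1+CRMP2 animal, and the other animal had 134 CPM. CRMP1+CRMP2 exceeded CRMP1+GDA by 0.35 ± 0.17 (95% interval 0.03 to 0.68, adjusted p = 0.332, unadjusted p = 0.0382 in edgeR). CRMP1+GDA lay -0.30 ± 0.16 from STIP1+NSE (interval -0.62 to 0.03, adjusted p = 0.957), and CRMP1+CRMP2 0.06 ± 0.15 from STIP1+NSE (interval -0.24 to 0.35, adjusted p = 0.94). In each of the 3 comparisons 0 of 36 vascular genes and 0% of 12738 genes had FDR < 0.1, with 2, 2 and 0 vascular genes at an unadjusted p under 0.05 in edgeR, against 14.7%, 4.38% and 6.53% of all genes. With the meningeal sum as a covariate the median of the 36 in CRMP1+GDA against STIP1+NSE moved from 0.06 to -0.02. Angpt2 differed by -0.42 ± 0.20 between CRMP1+CRMP2 and CRMP1+GDA, and between CRMP1+GDA and STIP1+NSE Kcnj8 differed by 0.53 ± 0.23 and Flt4 by 0.37 ± 0.17 (adjusted p = 0.332, 0.957 and 0.957). Values for the receptors were nearer to 0. Kdr differed by 0.01 ± 0.15, 0.06 ± 0.15 and 0.07 ± 0.14 and Flt1 by 0.04 ± 0.12, 0.02 ± 0.12 and 0.06 ± 0.11 in the 3 comparisons, with intervals for Kdr of -0.29 to 0.31, -0.24 to 0.35 and -0.21 to 0.34. The litter 9_8 held the CRMP1+GDA animal with high Vegfa. Without its 2 animals 4 vascular genes separated CRMP1+CRMP2 from CRMP1+GDA in edgeR (Angpt2, Kcnj8, Tjp1 and Vegfa), where 27.3% of all genes passed.

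Vegfa went with the dam-number block. All 5 litters of dams 9_6 to 9_10 had mean Vegfa of 111.7 to 138.8 CPM, whatever their group, while the litters of dams 9_1 to 9_5 had 72.65 to 118.9 CPM, those of 9_11 to 9_15 98.34 to 110.3 CPM and those of 9_16 to 9_19 78.05 to 109.9 CPM. Litters 9_24 and 9_25 had 144.6 and 103.2 CPM. In the 3 blocks that hold both patterns, the CRMP1+CRMP2 litter had 118.9, 138.8 and 98.7 CPM and the CRMP1+GDA litter 80.9, 111.7 and 82.5 CPM, so CRMP1+CRMP2 was higher in 3 of 3. With the block as a covariate Vegfa was the 1 vascular gene called between these patterns, with 0.36 ± 0.11 (95% interval 0.15 to 0.58, adjusted p = 0.0309 in edgeR), while 17.8% of 12738 genes passed. Its adjusted p was 0.0658 once litter was a random effect as well (11.3% of all genes). Vegfa lost the call without litter 9_1 or litter 9_3, where 4.46% and 4.67% of all genes passed, and without the slices over 10 CPM of pineal or Hox markers (0.246% of all). The other pairs had no vascular gene called with the block. There Vegfa lay -0.30 ± 0.11 from STIP1+NSE in CRMP1+GDA (adjusted p = 0.419, 0.00785% of all genes called) and 0.06 ± 0.10 in CRMP1+CRMP2 (adjusted p = 0.802, 0.133% called).

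**Figure D4:**
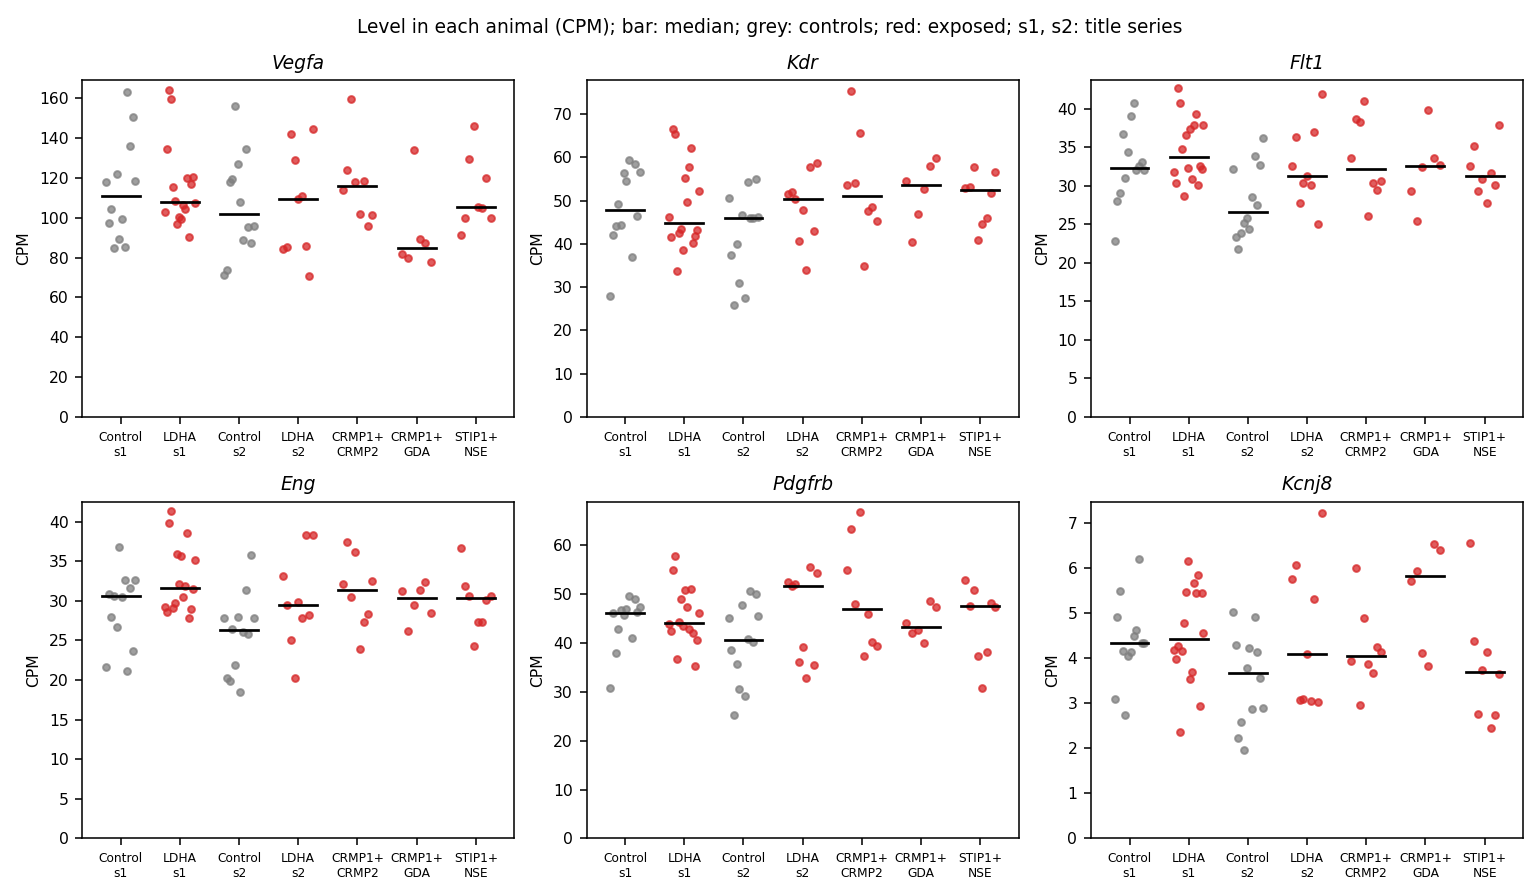
CPM of Vegfa, Kdr, Flt1, Eng, Pdgfrb and Kcnj8 in each of the 71 animals, with bars at the group medians (grey, controls; red, exposed; LDHA stands for LDHA/B+CRMP1+STIP1, and s1 and s2 for the title series). The groups overlap for all 6 genes, and Vegfa in CRMP1+GDA has 1 animal at 134 CPM over 5 between 77.6 and 89.3 CPM.

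Vascular genes also differed between the 2 title series. In controls alone, 12 of 36 genes (33.3%) had FDR < 0.1 between series 2 and series 1 in edgeR with sex as a covariate, against 41.5% of 12565 genes, so the share of vascular genes was below that of all genes. In LDHA/B+CRMP1+STIP1 animals, which share no sample with the controls, 8 of 36 (22.2%) passed, against 41.3% of 12533 genes. Cldn5, Ocln, Slc2a1, Tjp1, Mfsd2a and Rgs5 passed in both, 6 of the 12 and 6 of the 8 genes, in the same direction, and 28 of 36 genes had the same direction. Shared calls and directions were not counted over all genes, so these counts do not set the vascular genes apart from other genes. These tests treat littermates as independent. Tjp1 and Mfsd2a also passed in both in fits with litter as a random effect. Higher in series 2 were the junction genes Cldn5 and Ocln and the glucose transporter gene Slc2a1.

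Cldn5 (chr11:82212822-82214248) had lowest, median and highest CPM of 53.8, 91.1 and 115 in controls of series 1 and 69.98, 118 and 158 of series 2, and 58.4, 87.6 and 126 in LDHA/B+CRMP1+STIP1 of series 1 and 76.2, 131 and 160.5 of series 2. Series 2 was high in both, with overlap. The differences were 0.33 ± 0.13 (adjusted p = 0.0499) in controls and 0.45 ± 0.13 (adjusted p = 0.0105) in LDHA/B+CRMP1+STIP1. Ocln, the gene of the junction protein occludin, had 6.5, 7.98 and 10.3 CPM and 5.41, 11.3 and 13.9 CPM (lowest, median, highest) in the 2 control sets and differed by 0.34 ± 0.12 and 0.35 ± 0.12 (adjusted p = 0.0333 and 0.0219). Slc2a1 had 36, 47.8 and 55.9 and 41.6, 56 and 73.9 CPM in the control sets and differed by 0.24 ± 0.08 and 0.18 ± 0.06 (adjusted p = 0.0166 and 0.0263). Lower in series 2 were Tjp1, Mfsd2a and Rgs5. Tjp1 had 87.8, 113 and 142 CPM in LDHA/B+CRMP1+STIP1 of series 1 and 71.1, 94.6 and 117 CPM of series 2 (lowest, median, highest). It differed by -0.27 ± 0.06 in controls and -0.27 ± 0.07 in LDHA/B+CRMP1+STIP1 (adjusted p = 0.0013 and 0.00587), against medians of 109.5 and 90.5 CPM in the 2 control sets. Mfsd2a, the omega-3 lipid transporter of the barrier, had 22.6, 26.5 and 29.9 CPM in controls of series 1 and 19.3, 21.7 and 25.3 CPM in those of series 2 (lowest, median, highest). Its differences of -0.25 ± 0.06 and -0.25 ± 0.06 (adjusted p = 0.00121 and 0.00397) were those with the smallest p of the 36 genes in both comparisons. Rgs5, a regulator of G protein signalling enriched in pericytes, had 15.2, 21.9 and 30.5 CPM and 8.998, 18 and 25.6 CPM in the 2 control sets and differed by -0.41 ± 0.17 and -0.41 ± 0.13 (adjusted p = 0.0668 and 0.0177).

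Passing in controls alone were Slc16a1, the monocarboxylate transporter (0.15 ± 0.06), Vegfb (0.11 ± 0.05), Angpt1 (0.45 ± 0.15), Angpt2 (0.38 ± 0.15) and Pdgfb, the ligand that recruits pericytes (0.27 ± 0.10), all higher in series 2, and Flt1 (-0.23 ± 0.09), lower, with edgeR's adjusted p of 0.0547, 0.0831, 0.0253, 0.0491, 0.032 and 0.0569 in that order. Passing in LDHA/B+CRMP1+STIP1 alone were Tfrc (-0.22 ± 0.07, adjusted p = 0.0183) and Abcc9 (-0.26 ± 0.11, adjusted p = 0.0653), both lower. Tfrc had 93.5, 113 and 138 CPM in series 1 and 68.1, 99.3 and 118 CPM in series 2 (lowest, median, highest), and Abcc9 15.7, 20.3 and 28.3 and 12.7, 17.1 and 27.3 CPM. Both overlapped between the series. The interaction test above, which compares the 2 series differences, was passed by none of these genes. Their lowest, median and highest CPM in controls of series 1 and then series 2 were 2.89, 4.69 and 6.85 and 3.67, 6.5 and 8.56 for Angpt1 and 2.31, 3.86 and 5.01 and 3.11, 4.89 and 6.52 for Angpt2, and Pdgfb ranged over 11.6 to 21.2 and 12.7 to 22.5 CPM. Each of these ranges overlapped between the series. In a limma voom fit that treats litter as a random effect, Tjp1 and Mfsd2a remained in controls (adjusted p = 0.0461 and 0.0286; 22.5% of all genes passed) and 7 genes in LDHA/B+CRMP1+STIP1 (28.5% of all). Choroid plexus markers differed between the series by much more. All 12 were called higher in series 2 in both comparisons, and their sum ranged over 26.4 to 136 CPM in controls of series 1 and 168 to 3100.2 CPM in those of series 2, without overlap. With that sum as a covariate, 5 vascular genes passed in controls and 0 in LDHA/B+CRMP1+STIP1, where 2642 (21%) and 357 (2.85%) of all genes did, and Cldn5 (-0.26) and Ocln (-0.42) changed sign in controls. In controls the sum separates the series, so series and choroid plexus content cannot be told apart there. In LDHA/B+CRMP1+STIP1 the sums overlapped only in part (25.1 to 629.6 CPM in series 1, 420.6 to 2362 CPM in series 2), with medians of 70 and 1423 CPM. The fit therefore separates series from choroid plexus content poorly there too. The control litter RNA4 carried much of the control comparison, since without its 4 animals 2 genes passed (Tjp1 and Mfsd2a), and 7 passed without the 4 animals of the control litter 9_25, where 32.9% and 31.3% of all genes passed.

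**Figure D5:**
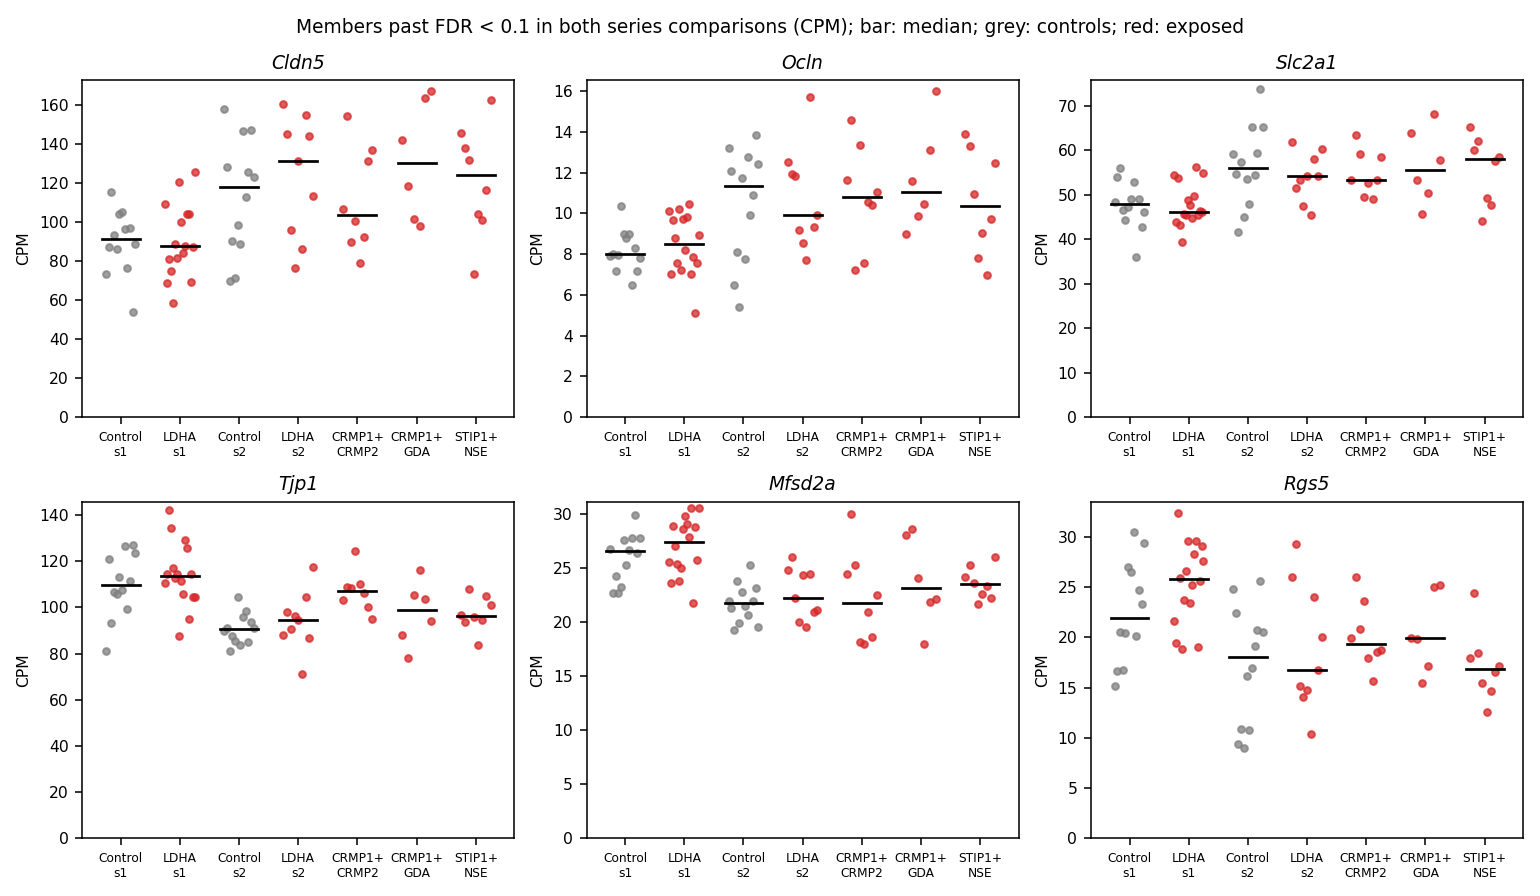
CPM in each animal of the 6 genes that passed FDR < 0.1 between series 2 and series 1 in controls and in LDHA/B+CRMP1+STIP1 with animals treated as independent (Tjp1 and Mfsd2a also with the litter as a random effect), with bars at the group medians (grey, controls; red, exposed; LDHA stands for LDHA/B+CRMP1+STIP1, and s1 and s2 for the title series). Cldn5, Ocln and Slc2a1 are higher in series 2 and Tjp1, Mfsd2a and Rgs5 lower, with overlap between series for every gene.

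Other genes of the same pathways were counted in 5 lists. In the MARA comparison and in LDHA/B+CRMP1+STIP1, CRMP1+GDA and STIP1+NSE no gene of any list passed. In CRMP1+CRMP2, where 11.4% of all genes passed, each list had genes that passed with animals as replicates. A fit with litter as a random effect called 33 genes in all (0.26%), and 0 in each of the 5 lists. Of junction and adhesion genes 3 of 17 tested rose and 0 fell, led by Podxl, an endothelial sialomucin (0.34 ± 0.07, adjusted p = 0.0098), the adhesion gene Mcam (0.30 ± 0.11, adjusted p = 0.0874) and Cldn1 (1.14 ± 0.41, adjusted p = 0.0916). Of barrier transport genes 4 of 23 rose and 0 fell, among them the insulin receptor gene Insr (0.34 ± 0.09), the amino acid transporter gene Slc7a1 (0.22 ± 0.06) and Plvap (0.94 ± 0.30), a protein of fenestrated vessels that barrier endothelium lacks (adjusted p = 0.032, 0.0326 and 0.0655). Of VEGF, hypoxia and angiopoietin genes 3 of 30 rose and 1 fell. Esm1, a target of VEGF in tip cells, rose by 1.21 ± 0.35, Arnt by 0.35 ± 0.13, and Angpt4 fell (-0.91 ± 0.31; adjusted p = 0.0424, 0.094 and 0.0742). Of Wnt and endothelial transcription genes 4 of 32 rose, led by Fzd6 (0.34 ± 0.09), Lrp5 (0.20 ± 0.07) and Vwf (0.34 ± 0.12), and 1 fell. Of pericyte and mural cell genes 2 of 25 rose, Mylk (0.50 ± 0.12, adjusted p = 0.0145) and Mcam. All CRMP1+CRMP2 animals belong to series 2, and 12 of the 24 controls to series 1. In controls alone Plvap (1.87 ± 0.26), Cldn1 (2.33 ± 0.34) and Mylk (1.15 ± 0.12) were higher in series 2, and Slc7a1 (-0.29 ± 0.06) was lower. Within series 2 alone 1.01% of 12605 genes passed. The part of the series in these calls was not tested. Plvap is also expressed in the fenestrated vessels of choroid plexus and pineal gland. Markers of both were higher in this group against all controls. Within series 2 with the dam-number block, 2 of 12 choroid plexus and 6 of 7 pineal markers were called higher. Their part in the value of Plvap was not tested. Without the slices over 10 CPM of pineal or Hox markers, 0 of all genes passed in this comparison, and with the choroid plexus sum as a covariate 1686 did.

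Between the series the same lists held more calls. In controls, Plvap (1.87 ± 0.26), Cldn1 (2.33 ± 0.34), the VEGF co-receptor gene Nrp1 (1.05 ± 0.10) and the Wnt effectors Tcf7l2 (5.22 ± 0.29) and Lef1 (1.93 ± 0.18) were higher in series 2, and Vegfd (-1.83 ± 0.20), Foxo1 (-0.98 ± 0.11) and Hif1a (-0.22 ± 0.05) lower. The same 8 genes passed in LDHA/B+CRMP1+STIP1 animals, with 2.12 ± 0.24 for Plvap, 0.99 ± 0.12 for Nrp1, 1.32 ± 0.20 for Lef1 and -0.23 ± 0.05 for Hif1a. Tcf7l2 is also a gene of the thalamus. In controls 5 of 17 junction, 7 of 23 transport, 4 of 30 VEGF, 9 of 32 Wnt and 6 of 25 pericyte genes were higher, and 2, 2, 4, 3 and 2 were lower, where 41.5% of all genes passed. In the fit with litter as a random effect (22.5% of all genes) these counts were 5, 5, 2, 8 and 4 higher and 1, 2, 4, 3 and 0 lower.

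No vascular gene passed between the sexes. Between males and females, with group and series as covariates, 0 of 36 genes passed in edgeR (0.0641% of 12477 genes did) and 0 had an unadjusted p under 0.05. Log2 fold changes lay between -0.07 and 0.11. With the litter as a random effect 1 of 36 had an unadjusted p under 0.05.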

How the data were processed

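Libraries of rat brain slices had been aligned by the authors with STAR 2.5.4b to rn7 and counted per gene with featureCounts. The authors deposited raw counts and an exon length in bases for each of 17494 genes. Whether reads in several genes were counted, and on which strand, is not given in the sources used here. Of the counts from 1 to 9, 74.5% were even, so counts halved were tried as an alternative. All columns of the table were mapped to a sample (0 were not used).

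Counts were scaled by TMM and tested in edgeR 4.0.16 (R 4.3.3) by robust quasi-likelihood, with Benjamini-Hochberg FDR under 0.1 over all genes tested. Exposed animals against controls were fitted on genes that reached 1 CPM in 8 or more libraries, and single patterns, against all 24 controls, on genes that exceeded 1 CPM in 2 or more, each with the first surrogate variable of sva 3.50.0. Contrasts between series and between patterns had sex as a covariate, and the fit of sex had group and series. All 36 genes passed these filters. Alternatives were DESeq2 1.42.0, median-ratio factors, no filter, limma 3.58.1 voom with litter as a random effect, litter sums, principal components, series and sex as covariates, fits within a series and leaving out each litter. Marker sums as covariates, leaving out 15 slices, same-series controls with a litter effect and blocks of 5 consecutive dam numbers as a covariate in series 2 were chosen after the data were seen. The labels do not say what such a block stands for. The fits of CRMP1+CRMP2 against controls and of controls between series were tested on simulated data in edgeR, limma voom and DESeq2. Simulated animals were independent, without litter or block effects. The other fits were not tested in this way. Correlations used scipy 1.17.1 on litter means, with 1e+05 resamples or exact.

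Genes were named by rule. Full values are given for at most 10 called genes a comparison and for Vegfa, Kdr, Flt1, Cldn5, Pecam1, Slc2a1 and Pdgfrb, and at most 3 called genes of each pathway list. The members, lists and markers were chosen with earlier results of these data known. Adgra2, Apcdd1, Cgn, Egln1, Foxf2, Hoxb2, Hoxb6, Lrp8 and Tcf7 were not analysed here. Intervals are at 95%. Each library held 24880182 to 36234952 counts.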

Additional observations from a re-analysis of the deposited data

Results flagged for a closer look

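Within the groups of series 2 that hold 4 to 10 animals, 144 combinations of a vascular gene and a group were examined for an animal far from the rest of its group (Dixon's gap ratio at the 95% level), and 14 were picked out. Chance alone picks about 1 in 20 combinations, and combinations of the same group share animals.

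CRMP1+CRMP2 replicate 2, of litter 9_1, was highest in 4 genes. It had 35.3 CPM of the adhesion gene Esam against 17.1 to 24.5 in the other 7 animals, 10.9 CPM of the efflux pump gene Abcg2 against 4.86 to 7.07, 316 CPM of the amino acid transporter gene Slc7a5 against 218 to 251, and 24 CPM of the transcription factor gene Sox18 against 11.4 to 16.8. CRMP1+CRMP2 replicate 3, of litter 9_6, had the highest Vegfa (159 CPM against 95.9 to 124) and the lowest Vegfb (28.4 CPM against 37.5 to 41). All 5 litters of dams 9_6 to 9_10 had high mean Vegfa, from 111.7 to 138.8 CPM.

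Both animals of the CRMP1+GDA litter 9_8 were picked out. Replicate 3 had 134 CPM of Vegfa against 77.6 to 89.3 in the other 5 animals. Replicate 4 had 24.2 CPM of the pericyte channel gene Abcc9 against 16.8 to 19.6 and 59.8 CPM of Cspg4 against 31.3 to 36.

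In LDHA/B+CRMP1+STIP1 of series 2, replicate 8 (litter 9_19) had the lowest Tfrc (68.1 CPM against 95.2 to 118), replicate 9 (litter 9_24) the highest Abcc9 (27.3 CPM against 12.7 to 19.1) and replicate 7 (litter 9_19) the highest Anpep (11 CPM against 3.91 to 6.96). In STIP1+NSE both animals of litter 9_2 stood out, replicate 2 with 348 CPM of Slc7a5 against 222 to 274 and replicate 1 with 6.57 CPM of Kcnj8 against 2.45 to 4.37. The causes were not tested.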

How the results depend on the processing

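The 825 values recomputed under alternatives, 344 of them added after seeing the data, left 0 vascular genes called in CRMP1+GDA, the interaction, CRMP1+GDA against STIP1+NSE, CRMP1+CRMP2 against STIP1+NSE and sex. With the dam-number block, the count in all exposed animals against controls of series 2 was 9 (12.3% of all genes). It was 2 with litter also as a random effect (2.33%) and 2 without the pineal or Hox slices (5.63%). With the meningeal and choroid plexus sums it was 5 and 7 (6.13% and 13.2%), and without 1 litter 0 to 9 (0% to 17.2%). Without the block every alternative run gave 0. In CRMP1+CRMP2 against controls, 1 gene (Tjp1) passed with series and sex as covariates, within series 2 and with the choroid plexus sum, 2 with the meningeal sum, and 0 to 4 when a litter was left out. Of all genes 1.01% passed within series 2, 13.3% with the choroid plexus sum, 20.1% with the meningeal sum and 0.324% to 22.8% without 1 litter. With the block the count was 11 (30.6% of all genes) and again 11 with litter as a random effect (23.5%). It was 12 and 9 with the meningeal and choroid plexus sums (27.8% and 31.4%), 1 without the slices (10.5%) and up to 14 without 1 litter (19.9% to 28.4%). Without the slices, LDHA/B+CRMP1+STIP1 had 1 call (Eng, 1.7% of all genes), or 1 (Flt1) with the block, where 15.6% of all genes passed. STIP1+NSE had 2 with the block, where 3.11% of all genes passed. In controls between series the count was 2 with litter as a random effect (22.5% of all genes) or with litter sums. It was 5 with the choroid plexus sum (21%), 19 with the meningeal sum (42.2%) and 2 to 13 without 1 litter (31.3% to 41.9%). In LDHA/B+CRMP1+STIP1 between series it was 2 with litter sums, 0 with the choroid plexus sum (2.85% of all genes) and 7 to 10 without 1 litter (32.8% to 42.9%). In CRMP1+CRMP2 against CRMP1+GDA it was 0 to 4 without 1 litter (0% to 27.3% of all genes). It was 1 with the block, with or without litter as a random effect (11.3% and 17.8%). With the block and the meningeal or choroid plexus sum it was 2 (18.7% and 19.4%).

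With animals instead of litters as points, r had an unadjusted permutation p under 0.05 for Pecam1 with Cdh5 (0.685) and Cdh5 with Pdgfrb (0.705) in series 1 and for Kcnj8 with Abcc9 (0.331) in series 2. There are more points in these tests and littermates are not independent. The p was not adjusted here, unlike that of the litter means, so the 2 sets of tests are not on one threshold. Of 514 values of single genes, 414 kept direction and side of the threshold, 42 lost and 46 gained it, and 12 reversed. With the choroid plexus sum, controls between series gave log2 values of -0.26 for Cldn5, -0.416 for Ocln, -0.00446 for Slc2a1, -0.11 for Slc16a1 and -0.1 for Angpt2, and LDHA/B+CRMP1+STIP1 gave -0.00312 for Cldn5, -0.0435 for Ocln and -0.168 for Slc16a1. Sox18 in LDHA/B+CRMP1+STIP1 was -0.0359 and -0.00364 with the block and the meningeal or choroid plexus sum. Pdgfrb was -0.00709 in exposed animals with PC1 to PC7, and Vegfa -0.0313 in CRMP1+CRMP2 against STIP1+NSE without the pineal or Hox slices. The cause was not tested.

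No paired analysis was possible because the labels give no replicate number that ties an animal of one group to an animal of another, and the numbers used here only follow the order of the samples. The dam-number block above is a grouping read from dam numbers, which the labels do not name as a pairing. Levels near 1 CPM, such as Slco1a4, are the least precise.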
